A study of Sus scrofa with 8 samples.

Results

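The genes described here are 10 cartilage matrix genes, COL2A1, ACAN, SOX9, COL9A1, COL11A1, COL10A1, MATN3, COMP, HAPLN1 and SNORC, out of 22516 genes quantified. They were chosen by name, with earlier results of these data known. Each matched 1 Ensembl pig gene, and all 10 had counts and were among the 21318 genes tested. Shares over all genes are given below as background, and cannot test a set chosen in this way. Bulk RNA-seq of OE (olfactory epithelium, the nasal tissue that carries the olfactory neurons) gave 8 libraries from 4 sows. All sows were in estrus, 8 months old and born to a Landrace boar and a Rongchang pig dam. The 2 sows of the androstenone treatment group were sprayed in the nose with Boarmate, a commercial spray that mainly contains the boar pheromone androstenone, and the OE was taken 30 min later. The 2 control sows received no solution at all, so that the spraying and its androstenone cannot be told apart. Both sides of each nose were sequenced separately, hence 4 libraries per group. The labels do not say which libraries share a sow, so p-values below take as replicates libraries that are not all separate animals.

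Cartilage is made by chondrocytes, which are embedded in a matrix of thin collagen fibrils and a hydrated proteoglycan gel. Type II collagen forms the bulk of these fibrils, and types IX and XI are built into them. Aggrecan, carried on hyaluronan by link protein, fills the space between. In the nose, cartilage lies beneath the mucosa, in the septum and at the bony and cartilaginous turbinates, so a piece of OE can be lifted with or without some of it. Several of these genes are not exclusive to chondrocytes: type XI collagen is also made by bone-forming cells, and SOX9 is also made in glands.

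Control 1 was shallow, with 4178330 counts, while 7 libraries held 81580146 to 100685566 each. Where control 1 had 0 counts of a gene, its level could still be as high as 0.718 CPM (counts scaled to a common library total, from 3 counts), against at most 0.0368 CPM elsewhere. These limits, and the intervals below, cover counting error only. In control 4, the most abundant 10 genes took 29.4% of the library, and elsewhere 6.57% to 9.02%. All pairs of libraries differed by more than counting error. Levels are TPM, a length-scaled unit in which genes can be compared with each other, and errors are the SD over the 4 libraries of a group. In bulk tissue, fewer cells of a type and less RNA per cell cannot be told apart.

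The data show a split within the cartilage genes. COL2A1, which encodes the collagen that defines cartilage, was at no more than 1.78 TPM in any library. ACAN, HAPLN1 and COL11A1 nevertheless reached 189, 103 and 375 TPM in control 4, and 99.7, 32.3 and 91.5 TPM in control 2. These 3 genes held 48.8% to 97.8% of the summed TPM of the 10 genes in each library, and COL2A1 held 0.12% to 4.54%. The summed level was 682 TPM in control 4 and 249 TPM in control 2, and between 7.33 and 47.3 TPM in the other 6 libraries.

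**Figure D1:**
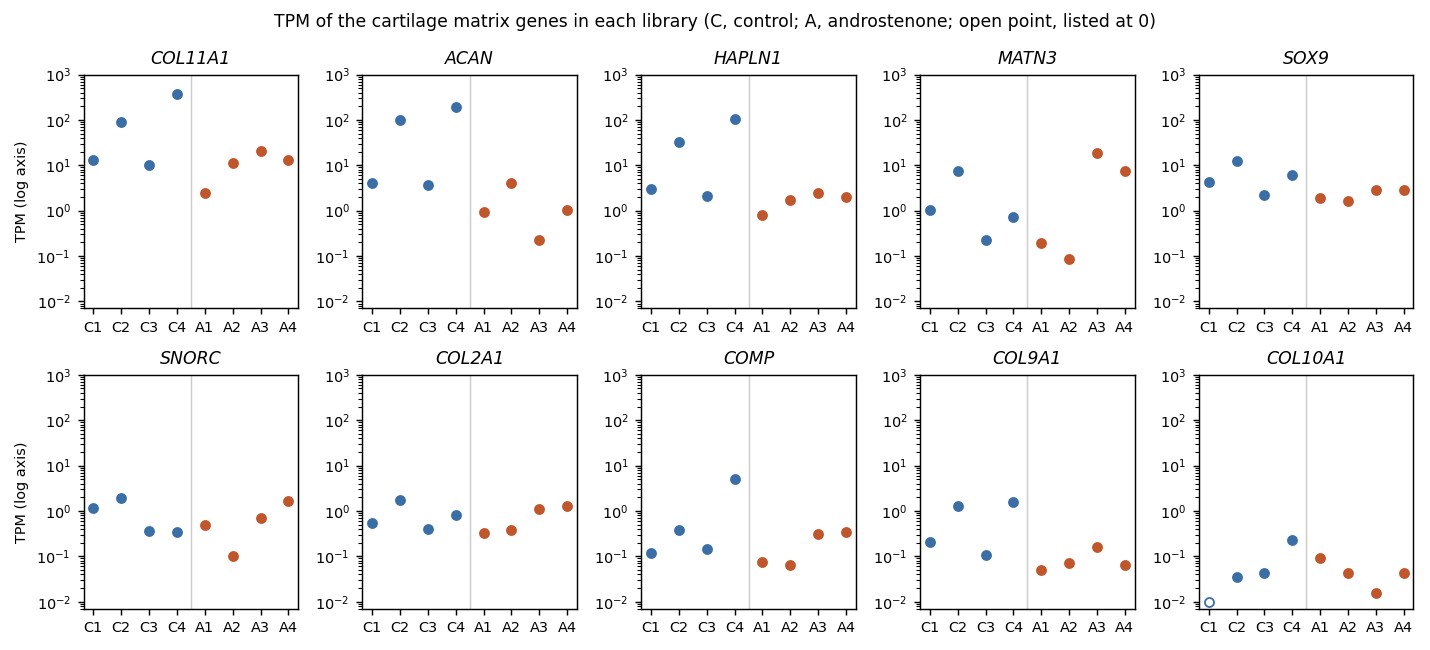
TPM (log axis) of each of the 10 cartilage matrix genes in each library, with genes in order of their mean level, control libraries in blue, androstenone libraries in orange and an open point for a gene listed at 0. COL11A1, ACAN, HAPLN1 and COL9A1 were highest in control 4 and control 2, COL2A1 did not exceed 1.78 TPM, and MATN3 was highest in androstenone 3 at 19.1 TPM.

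The fibrillar collagens were described first. COL2A1 (ENSSSCG00000025523, chromosome 5 of Sscrofa11.1 from 78350131 to 78380893) encodes the alpha 1 chain of type II collagen. It was at 0.535, 1.78, 0.393 and 0.815 TPM in control 1 to 4, and at 0.332, 0.38, 1.13 and 1.28 TPM in androstenone 1 to 4. The highest library was thus control 2, followed by androstenone 4 and androstenone 3, and the groups overlapped throughout. In every library, 24.9% to 35.4% of all 22516 genes had a lower TPM than COL2A1, which places it in the lower part of the transcriptome. It was nonetheless detected in all 8 libraries, with 118 to 499 counts in the 7 deeper libraries. Control 1 held 8 counts, or 1.91 CPM of the library total (95% exact binomial interval 0.827 to 3.77).

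COL11A1 (ENSSSCG00000006857, chromosome 4 from 115638381 to 115841679) encodes the alpha 1 chain of type XI collagen, which is found inside type II fibrils and sets their width. Control 1 to 4 held 13.3, 91.5, 9.9 and 375 TPM, and androstenone 1 to 4 held 2.44, 11.2, 20.4 and 13.1 TPM. Control 2 and control 4 stood above all other libraries, while control 1 and control 3 lay within the androstenone range. Per TPM of COL2A1 there were 7.34 TPM of COL11A1 in androstenone 1 and 460 in control 4. Its partner chain COL11A2, which is not among the 10 genes, was at 288 TPM in control 4 and at 1.27 to 13.1 TPM in the other 7. The ratio of COL11A1 to COL11A2 was 1.15 to 1.74 in control 1, control 3, control 4, androstenone 1 and androstenone 2. In control 2, androstenone 4 and androstenone 3 it was 6.98, 8.13 and 16.1, so that COL11A1 outweighed its partner most in these 3 libraries.

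COL9A1 (ENSSSCG00000004274, chromosome 1 from 50403355 to 50498356) encodes a chain of type IX collagen, which decorates the surface of the fibril. It was at 0.207, 1.31, 0.107 and 1.6 TPM in control 1 to 4, and at 0.0507, 0.0719, 0.16 and 0.0646 TPM in androstenone 1 to 4. The order of libraries was that of ACAN and HAPLN1 at the top, with control 4 and control 2 first, although the level was low. Counts were 256 in control 4 and 223 in control 2, against 2 in control 1 and 11 to 31 in the other 5.

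The proteoglycan gel came next. ACAN (ENSSSCG00000001832, chromosome 7 from 54449830 to 54520606) encodes aggrecan, the large chondroitin sulfate proteoglycan of cartilage. Levels were 4.03, 99.7, 3.75 and 189 TPM in control 1 to 4. In androstenone 1 to 4 they were 0.924, 4.13, 0.225 and 1.01 TPM. Control 2 and control 4 stood apart from the other 6 libraries by more than an order of magnitude, and androstenone 2 lay above control 1 and control 3. Within its own library, ACAN in control 4 exceeded 97.6% of all genes and in androstenone 3 only 22.5%. Per TPM of COL2A1 there were 231 TPM of ACAN in control 4, 56.2 in control 2, 2.78 to 10.9 in control 1, control 3, androstenone 1 and androstenone 2, and 0.2 and 0.795 in androstenone 3 and androstenone 4. In the RefSeq annotation ACAN overlaps HAPLN3, whose levels were 0.976 to 4.87 TPM, with 4.57 and 4.48 TPM in control 2 and control 4.

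HAPLN1 (ENSSSCG00000014137, chromosome 2 from 91857495 to 91935485) encodes link protein, which locks aggrecan to hyaluronan. It was at 2.93, 32.3, 2.09 and 103 TPM in control 1 to 4 and at 0.788, 1.74, 2.44 and 1.99 TPM in androstenone 1 to 4. The same 2 control libraries were high, and the remaining 6 lay between 0.788 and 2.93 TPM. HAPLN1 per TPM of ACAN was 0.324 to 0.853 in 6 libraries, 1.97 in androstenone 4 and 10.8 in androstenone 3. Androstenone 3 was the library in which ACAN was lowest while HAPLN1 was the highest of its group.

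The adaptor and accessory proteins of the matrix had patterns of their own. MATN3 (ENSSSCG00000008603, chromosome 3 from 118185928 to 118206465) encodes matrilin-3, which bridges collagen fibrils and proteoglycans. Control 1 to 4 were at 1.02, 7.58, 0.229 and 0.736 TPM, and androstenone 1 to 4 at 0.194, 0.0863, 19.1 and 7.44 TPM. The high libraries were androstenone 3, control 2 and androstenone 4, and within the androstenone treatment group the highest exceeded the lowest 221-fold. Control 4, which led for ACAN, was at 0.736 TPM for MATN3.

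COMP (ENSSSCG00000013916, chromosome 2 from 59061409 to 59068951) encodes cartilage oligomeric matrix protein, which binds collagens and is also found in tendon. Its levels were 0.119, 0.388, 0.148 and 5.17 TPM in control 1 to 4 and 0.0751, 0.0633, 0.304 and 0.337 TPM in androstenone 1 to 4. Control 4 alone was above 0.388 TPM and held 799 of the 1044 counts of the gene. SNORC (ENSSSCG00000016294) encodes a small transmembrane proteoglycan of chondrocytes and had 100 counts over all libraries. It was at 1.18, 1.98, 0.363 and 0.34 TPM in control 1 to 4 and at 0.503, 0.101, 0.717 and 1.67 TPM in androstenone 1 to 4, of which the value of control 1 rests on 1 count. Control 2 and androstenone 4 were highest, and control 4 was among the lower libraries.

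SOX9 (ENSSSCG00000017251, chromosome 12 from 8642154 to 8647315) encodes the transcription factor that drives the chondrocyte programme. It was at 4.33, 12.6, 2.19 and 6.1 TPM in control 1 to 4, and at 1.93, 1.66, 2.87 and 2.93 TPM in androstenone 1 to 4. Its spread was smaller than that of ACAN, with a highest control library 5.74 times the lowest of the 3 deeper ones, against 50.4 times for ACAN. Only control 3 of the control group lay within the androstenone range. COL10A1 (ENSSSCG00000004436, chromosome 1 from 81766829 to 81773818) encodes type X collagen, which marks hypertrophic chondrocytes before bone forms. It had 93 counts in all, was listed at 0 in control 1 and was at 0.0153 to 0.233 TPM in the other 7 libraries, highest in control 4. In the RefSeq annotation it lies over NT5DC1, and the counting is not stated to use strand, so reads of overlapping genes cannot be told apart at this level.

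In order of mean TPM over the 8 libraries the genes ran COL11A1, ACAN, HAPLN1, MATN3, SOX9, SNORC, COL2A1, COMP, COL9A1 and COL10A1. SOX9 was above SNORC in 8 of 8 libraries, and COL11A1 above ACAN, COL2A1 above COMP and COL9A1 above COL10A1 in 7 of 8. MATN3 was above SOX9 in 2, SNORC above COL2A1 in 4 and COMP above COL9A1 in 5 of 8, so that these neighbours did not separate beyond their spread. Control 4 was the highest library for 6 of the 10 genes, control 2 for 3 and androstenone 3 for 1. Control 2 and control 4 were the 2 highest libraries for 6 of the 10, namely COL11A1, ACAN, HAPLN1, SOX9, COMP and COL9A1. Over all genes tested, 9.54% had these 2 libraries on top.

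The control group was then compared with the androstenone treatment group, with edgeR's quasi-likelihood test over all 21318 genes. A gene was called where its unadjusted p was below 0.05 and its level changed 2-fold or more. Of the 10 genes, 6 were downregulated at this cutoff, 0 were upregulated and 4 did not pass, where 4.38% of all genes tested were downregulated, 2.04% upregulated and 6.42% called in either direction. After Benjamini-Hochberg adjustment over all genes, 0 of the 10 passed in the same test and 0 in limma voom, against 3 in edgeR's likelihood ratio test, 2 in its exact test and 4 in DESeq2. These tools placed 0.938%, 0.736% and 3.14% of all genes below an adjusted p of 0.05. The median log2 fold change was -2.20 over the 10 genes and -0.021 over all genes tested. The groups overlapped for all 10 genes in CPM, and 6.53% of all genes had groups that did not overlap. As the 10 genes were chosen with earlier results known, these shares are background and not a test.

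ACAN went from 74.1 ± 88.8 TPM (SD, n = 4 libraries) in the control group to 1.57 ± 1.74 TPM (SD, n = 4) in the androstenone treatment group. On the log2 scale this was -5.60 ± 1.60 (SE; unadjusted p = 0.00734, adjusted p = 0.393 in edgeR's quasi-likelihood test). HAPLN1 went from 35.1 ± 47.5 to 1.74 ± 0.696 TPM (SD, n = 4 each), or -4.42 ± 1.29 on the log2 scale (SE; edgeR adjusted p = 0.393). COL9A1 went from 0.805 ± 0.758 to 0.0867 ± 0.0494 TPM, or -3.27 ± 0.90 on the log2 scale (SE; edgeR adjusted p = 0.393). In each of the 3 genes the control SD was about as large as the control mean, which came from control 2 and control 4. The unadjusted call held for these 3 genes with each library left out in turn, with a log2 fold change between -6.74 and -4.28 for ACAN, -4.82 and -2.64 for HAPLN1 and -3.75 and -2.54 for COL9A1. In other fits HAPLN1 did not pass with limma voom (unadjusted p = 0.0604), and neither HAPLN1 nor COL9A1 passed with limma on log2(TPM + 1) (0.0672 and 0.0668) or with the replicate number as a block (0.0714 and 0.0727). Among the fits that left out 1 library, the value nearest 0 came without control 4 in all 3, and that of ACAN farthest from 0 without androstenone 2.

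The calls of COL11A1, SOX9 and COMP did not hold with every library left out. COL11A1 went from 122 ± 173 to 11.8 ± 7.38 TPM (SD, n = 4 each), or -3.47 ± 1.27 on the log2 scale (SE; unadjusted p = 0.0244, adjusted p = 0.416). Its log2 fold change was -1.49 without control 4 (unadjusted p = 0.138), and p was also above the cutoff without androstenone 1 (0.0536), androstenone 2 (0.0524) or androstenone 4 (0.0527), with log2 fold changes of -3.14, -3.47 and -3.51 that were about as large as with all libraries. SOX9 went from 6.30 ± 4.48 to 2.35 ± 0.646 TPM, or -1.33 ± 0.50 on the log2 scale (SE; unadjusted p = 0.0271, adjusted p = 0.416). It was at -0.84 without control 2, and p was above the cutoff without control 4 (0.0565), androstenone 1 (0.0625) or androstenone 2 (0.0631), where the log2 fold changes were -1.24, -1.26 and -1.21. COMP went from 1.46 ± 2.48 to 0.195 ± 0.146 TPM, or -3.08 ± 1.31 on the log2 scale (SE; unadjusted p = 0.0453, adjusted p = 0.437). Without control 4 it was -0.098 (unadjusted p = 0.899), and without any 1 androstenone library p was between 0.0614 and 0.0991 at log2 fold changes of -3.45 to -2.81. These p-values are from edgeR's quasi-likelihood test.

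Both high control libraries were also left out together, a choice made after seeing the data. They were the 2 highest libraries for 6 of the 10 genes, so smaller falls without them follow from the choice itself. Without them, 0 of the 10 genes passed the unadjusted cutoff, and 2.32% of all genes tested were downregulated. ACAN was at -1.15 (unadjusted p = 0.277), HAPLN1 at -0.35 and COL9A1 at -0.53 on the log2 scale, and COL11A1 and COMP at 0.18 and 0.65, on the other side of 0. The median of the 10 genes was 0.37. With 2 control libraries left, these fits have less power than the full one, and a p above the cutoff does not show that the levels were alike.

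**Figure D2:**
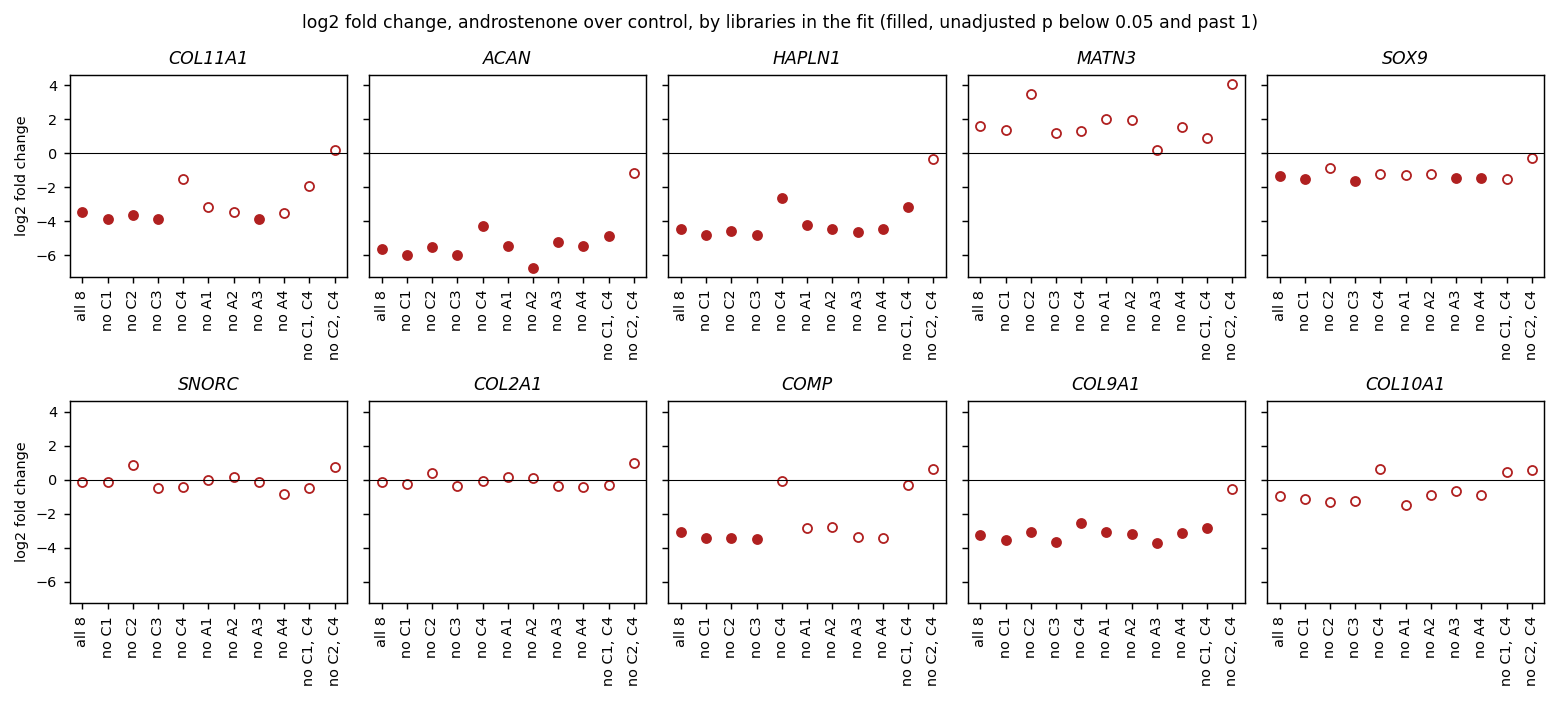
Fitted log2 fold change (androstenone over control) of each cartilage matrix gene with all 8 libraries, with each library left out and with 2 pairs of control libraries left out, where filled points passed the unadjusted cutoff (p below 0.05 and past 1) and open points did not. ACAN, HAPLN1 and COL9A1 passed in every fit except that without control 2 and control 4, where 0 of the 10 genes passed. That pair was chosen after seeing the data, as the high libraries of these genes.

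The 4 remaining genes did not pass the cutoff. COL2A1 was at 0.88 ± 0.623 TPM in the control and 0.779 ± 0.492 TPM in the androstenone treatment group (SD, n = 4 each). The change was -0.11 on the log2 scale with a 95% interval of -1.48 to 1.26 (edgeR adjusted p = 0.953), so changes of 2-fold either way are within the interval. The value stayed between -0.42 and 0.40 with each library left out. For MATN3, at 2.39 ± 3.47 and 6.69 ± 8.93 TPM, the log2 fold change was 1.60 (95% interval -1.99 to 5.18), and it was 0.18 without androstenone 3 and 3.50 without control 2. SNORC was at -0.16 (95% interval -2.16 to 1.84) and COL10A1 at -0.96 (95% interval -3.07 to 1.14) on the log2 scale. COL10A1 was at 0.63 without control 4, the library that held 38 of its 93 counts, and SNORC was at 0.84 without control 2.

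Other genes of cartilage, in lists that do not include the 10, were read from the same fit. In that fit, 4.38% of all genes tested were downregulated and 2.04% upregulated. Of 17 further cartilage matrix genes, 6 were downregulated, 0 upregulated and 11 did not pass, with a median log2 fold change of -0.85. CILP2, a relative of cartilage intermediate layer protein, was at 2.06, 23.3, 0.85 and 18.7 TPM in control 1 to 4 and at 0.26 to 0.569 TPM in the androstenone libraries. It was downregulated, at -4.73 ± 1.07 on the log2 scale (SE; edgeR adjusted p = 0.378). CHAD, which encodes the collagen-binding chondroadherin, was at 831 TPM in control 4, 25.4 to 48.6 TPM in the other control libraries and 5.88 to 20.9 TPM in the androstenone libraries, with a log2 fold change of -4.47. COL9A3, a chain of type IX collagen, was at -3.45 and MATN1, the matrilin of mature cartilage, at -2.46, although MATN1 did not exceed 0.889 TPM. Of the 17, CILP2, CHAD and MATN1 had groups that did not overlap in CPM, against 6.53% of all genes tested. The log2 fold change of CHAD was -1.44 without control 4, and that of COL9A3 was -0.012 without both control 2 and control 4. Without control 4, 4 of the 17 were downregulated and 0 upregulated, where 1052 genes passed in either direction over all genes. MATN4, COL27A1 and CNMD, a matrilin, a fibrillar collagen and the cartilage protein chondromodulin, did not pass, at -0.85, -1.11 and -1.50 on the log2 scale. CNMD was highest in control 1, at 34.2 TPM, and at 1.07 to 17.2 TPM elsewhere.

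Of 15 regulators of chondrocytes, 3 were downregulated and 0 upregulated, against 4.38% and 2.04% of all genes tested. PTH1R, the receptor of parathyroid hormone and its related peptide, which is also found on osteoblasts, was at 20.1, 91.2, 9.45 and 309 TPM in control 1 to 4 and 3.21 to 11.3 TPM in the androstenone libraries. It was downregulated, at -4.30 ± 1.17 on the log2 scale (SE; edgeR adjusted p = 0.393), and at -2.60 without control 4. RUNX2, a driver of bone formation and of chondrocyte hypertrophy, was at -1.53, and SOX6, the partner of SOX9, at -1.12 on the log2 scale. Their calls were lost without control 4, at -0.53 and -0.75. They were also lost without androstenone 1 or androstenone 2, with p of 0.0526 and 0.0571 for RUNX2 and 0.0514 and 0.0503 for SOX6, and that of RUNX2 without androstenone 3 or androstenone 4 as well. FGFR3, MEF2C and WWP2 did not pass, at -1.07, -0.50 and -0.71.

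Of 10 genes of chondroitin sulfate synthesis and sulfation, 0 passed in either direction, with a median log2 fold change of -0.21. At 6.42% called over all genes, a count of 0 of 10 is near the background. CHST3, a chondroitin sulfotransferase, was at 2.2, 4.03, 0.672 and 19.2 TPM in control 1 to 4 and at 0.562 to 3.06 TPM in the androstenone libraries, and CHSY1 and CHPF were also highest in control 4 and control 2. These 3 genes did not pass, at -1.91, -0.49 and -0.38 on the log2 scale. No other gene of the list had control 4 and control 2 as its 2 highest libraries. SLC26A2, for one, was highest in control 3, at 25.8 TPM, and lowest in control 2, at 10.6 TPM. XYLT1 was highest in androstenone 4, at 5.80 TPM. UGDH, which makes the sugar precursor UDP-glucuronate, was at 37.7 ± 4.84 and 37 ± 2.82 TPM (SD, n = 4 each). BPNT2 and PAPSS2, which serve the sulfate donor, were at 0.17 and -0.07 on the log2 scale. Of 6 genes of matrix breakdown, ADAMTS4, an aggrecanase, was downregulated (log2 fold change -2.79 ± 0.96, SE; edgeR adjusted p = 0.416) and was at -1.28 without control 4, where its p was 0.0848. MMP13, a collagenase of cartilage and bone, did not pass (log2 fold change -3.62, unadjusted p = 0.0503). It passed where control 1, control 2 or control 3 was left out, and was at 0.55 on the log2 scale without control 4. Its level was 3085 TPM in control 4 and 24.3 to 116 TPM in the other 7 libraries. HTRA1 and TIMP3, a protease and a protease inhibitor, were at -1.19 and -0.60 and did not pass.

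**Figure D3:**
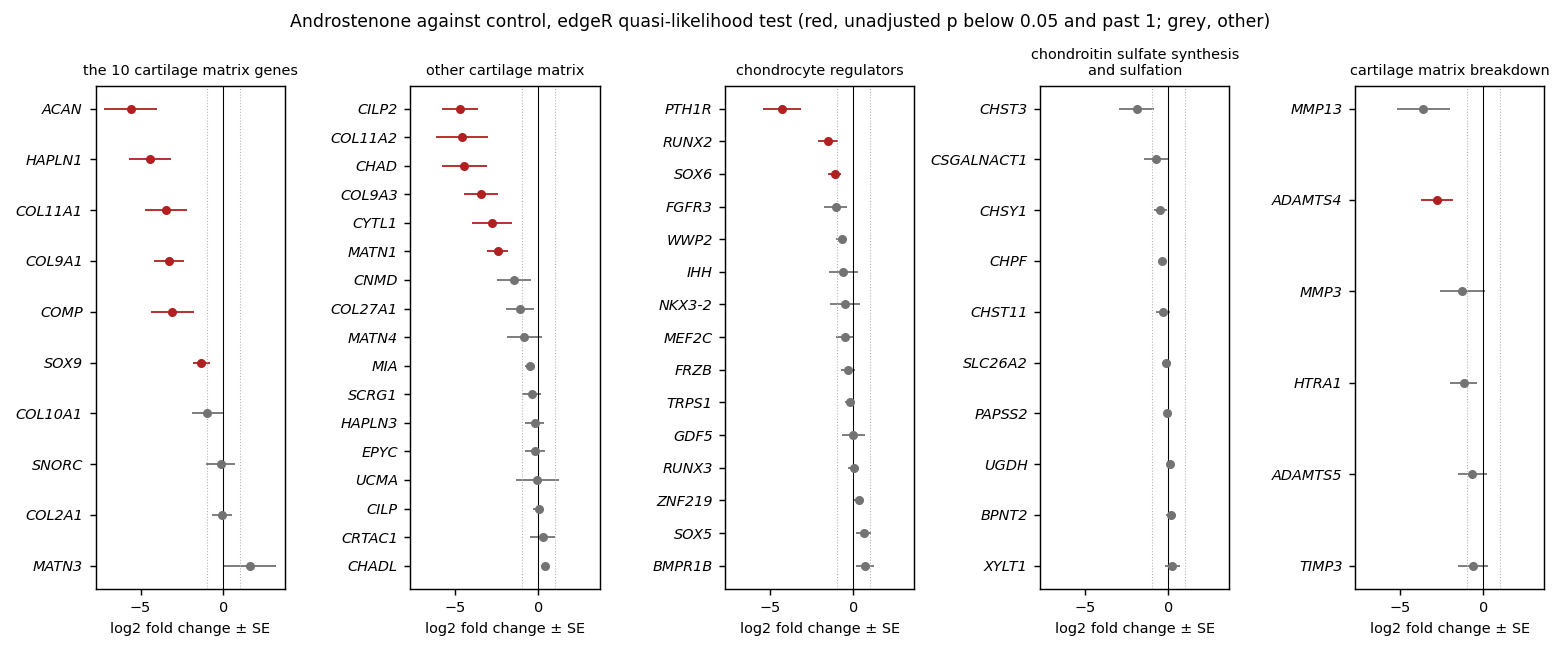
Log2 fold change (androstenone over control) with its standard error for the 10 cartilage matrix genes and 4 further lists, where red marks an unadjusted p below 0.05 and a change past 1 in edgeR's quasi-likelihood test. Red points lie below 0 in each panel that has any, and the panel of chondroitin sulfate synthesis has 0.

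Markers of other cells also differed between libraries, though not all in the pattern of control 4 and control 2. Their part in the results above was not tested. With all libraries in the fit, 4.38% of all genes tested were downregulated and 2.04% upregulated. Of 11 genes of osteoblasts and bone matrix, 11 were downregulated, with a summed level of 97257 TPM in control 4, 2244 to 8002 TPM in the other controls and 861 to 2938 TPM in the androstenone libraries. Without control 4, 1 of the 11 passed, at a median log2 fold change of -0.62 against -4.36 with all libraries. Without androstenone 1, androstenone 3 or androstenone 4, 5 of the 11 passed, at medians of -4.30 to -4.18, and DESeq2 called 2. Of 7 osteoclast genes, 7 were downregulated, and 0 passed without control 4. Their sums were 7468 TPM in control 4, 916 TPM in control 3 and 266 and 320 TPM in control 1 and control 2. In the androstenone group these sums were 241 to 438 TPM. Without androstenone 1 to 4 in turn, 4, 1, 1 and 0 osteoclast genes passed, and DESeq2 called 3. Over all genes, 1052 passed in either direction without control 4, and 1489 with DESeq2. Without androstenone 1 to 4 in turn, 867, 881, 1182 and 1359 genes passed. A gene for which DESeq2 gave no p, as for COMP, was counted as not called. Of 7 fibroblast genes 1 passed, with sums of 539 to 17735 and 409 to 3356 TPM. Of 5 genes of Schwann cells and ensheathing glia 0 passed, with a sum of 30.4 TPM in control 2 against 0.838 to 4.66 TPM in the other 7. SOX10, which is made by glia, glands and cartilage, was at 17.4 TPM in control 2. The genes of respiratory ciliated cells had sums of 179 TPM in control 4 and 247 TPM in control 2, below the 516 and 999 TPM of control 1 and control 3, and 0 of 6 passed. All 11 bone genes were highest in control 4. In control 2, SP7 was at 48.4 TPM, above control 1 and control 3, whereas BGLAP, which encodes osteocalcin, was at 100.2 TPM, below the 186 and 168 TPM of these libraries.

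Other lists were read in the same way, beside 4.38% of all genes downregulated and 2.04% upregulated. Of 8 genes of olfactory neurons 0 passed, with sums of 80.2 to 215 TPM in the control and 94.8 to 186 TPM in the androstenone group. Most of these sums came from STOML3, at 34.9 to 190 TPM, and ANO2, at 3.18 to 50.4 TPM. CNGA2 was at no more than 5.01 TPM. The olfactory G protein gene GNAL was at 0.497 to 8.87 TPM and RTP1, which carries olfactory receptors to the surface, at no more than 0.038 TPM. Of 4 genes of sustentacular cells and olfactory glands 0 passed, with sums of 552 to 1661 and 602 to 2619 TPM. Of 5 genes of serous glands 1 passed, LYZ, which was upregulated, with sums of 2927 to 11664 and 4200 to 8402 TPM. Of 5 erythroid genes 1 was downregulated, with sums of 33.1 to 213 and 18.7 to 101 TPM, and of 3 adipocyte genes 0 passed, with sums of 1.12 to 2.77 and 1.05 to 2.29 TPM.

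**Figure D4:**
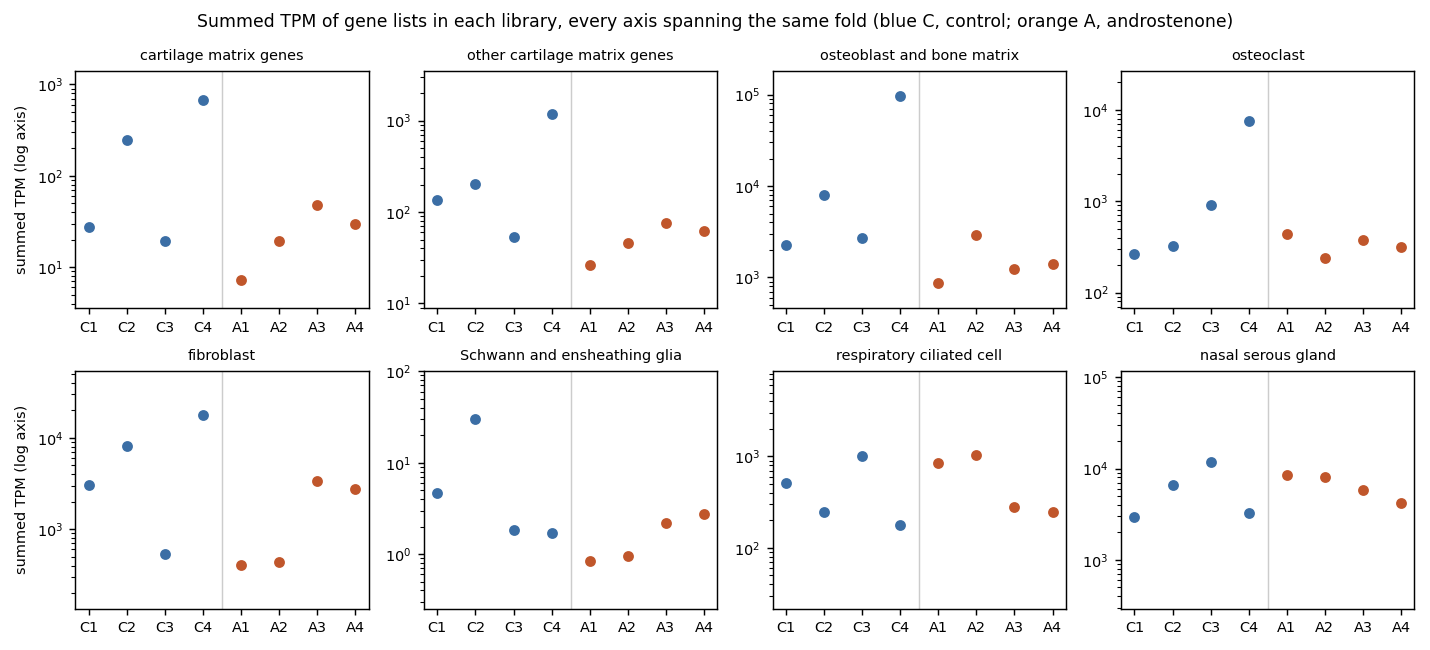
Summed TPM (log axis) of 8 gene lists in each library, with control libraries in blue and androstenone libraries in orange. The cartilage matrix genes were highest in control 4 and control 2, as were the lists of osteoblasts and bone matrix and of fibroblasts, while the glial list was highest in control 2.

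COL1A1, the main collagen gene of bone and of connective tissue other than cartilage, was at 32876 TPM in control 4, 3686 TPM in control 2, 862 and 961 TPM in control 3 and control 1 and 157 to 942 TPM in the androstenone libraries. Per 100 TPM of COL1A1, COL11A1 was at 1.14 to 1.56 TPM in control 1, control 3, control 4, androstenone 1 and androstenone 2, and at 2.48 to 4.28 TPM in control 2, androstenone 4 and androstenone 3. ACAN per 100 TPM of COL1A1 was at 0.419 to 0.59 TPM in the same 5 libraries, at 2.71 TPM in control 2 and at 0.0472 and 0.217 TPM in androstenone 3 and androstenone 4. Thus the levels of both genes in control 4 were high in the same proportion as COL1A1, whereas in control 2 both exceeded that proportion. HAPLN1 per 100 TPM of COL1A1 was at 0.877 TPM in control 2 and 0.314 TPM in control 4. COL2A1 did not scale with COL1A1: there were 367 to 2480 TPM of COL1A1 per TPM of COL2A1 in 7 libraries and 40330 in control 4.

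**Figure D5:**
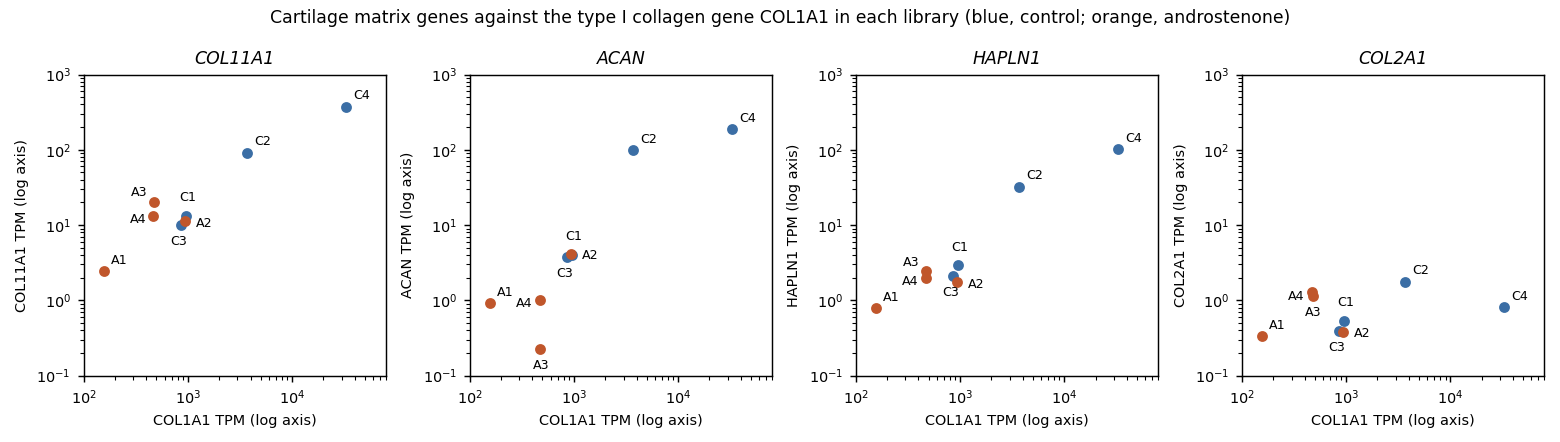
TPM of COL11A1, ACAN, HAPLN1 and COL2A1 (log axes) against TPM of COL1A1 in each library, labelled C1 to C4 for control and A1 to A4 for androstenone. COL11A1, ACAN and HAPLN1 were at 375, 189 and 103 TPM where COL1A1 was highest, in control 4, and COL2A1 was at 0.815 TPM there.

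Genes whose pattern over the 8 libraries was most like a given gene were ranked. The measure was the root mean square difference of their centred log2 CPM. Ranked were only genes outside the 10 cartilage matrix genes, with at least 10 counts on average per library. For COL2A1 the nearest were PDXP, RFTN1, PPM1J, OTOS and PDE3A, with differences of 0.265, 0.278, 0.279, 0.281 and 0.295 on the log2 scale. Of the first 10, only 2 remained among the first 10 without control 1, control 1 being the shallow library. Among the first 10 for COL2A1 there was no gene of the other cartilage lists, and the same measure between COL2A1 and ACAN was 3.01. SOX9 and SNORC were nearest to COL2A1 among the cartilage matrix genes, at 0.647 and 0.724. For the mean pattern of the cartilage genes with enough counts the nearest were DUSP15, DPYSL3 and LGALS1, at 0.228, 0.237 and 0.252, of which LGALS1 encodes galectin-1. Of the first 10 for this mean, 6 remained without control 1. The mean includes COL10A1 and SNORC, which had only 93 and 100 counts in all. The same rule was applied to ACAN after seeing the data and gave SP7, ASPN and TNN, at 0.57, 0.573 and 0.637, with OMD and PANX3 also among the first 10. SP7 encodes the osteoblast transcription factor osterix and OMD osteomodulin of bone. SP7 was at 5.21, 48.4, 4 and 132 TPM in control 1 to 4 and at 0.421 to 4.7 TPM in the androstenone libraries. Of the first 10 for ACAN, 9 remained without control 1.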

How the data were processed

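Per the labels, the study's methods and the submitters' processing notes, fastp 0.23.1 was used for trimming and kallisto 0.48.0 for quantification against Ensembl release 108 of the pig genome Sscrofa11.1, and the authors deposited 2 tables of all 8 libraries, one of estimated counts and one of TPM per gene. After rounding, every gene with 1 count or more in any library was fitted with edgeR 4.0.16 in R 4.3.3 (TMM, quasi-likelihood test, condition only), and called at an unadjusted p below 0.05 and a log2 fold change of 1 or more in size, as in the study's methods. Fold changes are androstenone over control. P-values after Benjamini-Hochberg adjustment over all genes stand beside them. A sow's 2 sides share an animal, so p-values measure partly the spread within animals.

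All 10 genes are named. From each other list of cartilage genes, up to 4 called genes by p and up to 3 others by mean TPM were named. Single genes of the other lists, HAPLN3, COL11A2, CHST3, CHSY1, CHPF, SLC26A2, XYLT1 and the genes compared with ACAN were chosen after their values were seen. The genes and lists were chosen with earlier results of these data known. Markers not matched by name were left out. Gene positions are from RefSeq on Sscrofa11.1 and were matched by symbol for 9 of the 10 genes. The labels give no batch. Alternatives were edgeR's likelihood ratio and exact tests, DESeq2 1.42.0, limma 3.58.1 (voom, and log2 TPM with a pseudocount of 0.1 or 1), other scalings and filters, the replicate number as a block, and each library left out. The fits were also run on simulated counts, with independent libraries and the same dispersion for all genes. These had no paired sides of a sow and no library like control 4, so they do not bear on those features. The counting is not stated to use strand.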

Additional observations from a re-analysis of the deposited data

Results flagged for a closer look

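In each group of 4 libraries, a highest or lowest library was looked for whose gap to the nearest other, over the group's range, exceeded Dixon's 95% critical value, over the cartilage matrix genes, the other named genes and the summed lists. Of 90 groups, 10 had such a library, 7 of them through control 4, 2 through control 2 and 1 in the androstenone group. The critical value holds for independent, normally distributed values. These groups share libraries, and the sums share genes with the single rows, so the count cannot be set against chance. Among the 10 cartilage matrix genes there were 2. MATN3 was at 7.58 TPM in control 2 against 0.229 to 1.02 TPM in the other controls, and COMP at 5.17 TPM in control 4 against 0.119 to 0.388 TPM.

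Among the other named genes, CHAD was at 831 TPM in control 4 against 25.4 to 48.6 TPM, and MMP13 at 3085 TPM in control 4 against 24.3 to 80.6 TPM. PTH1R was at 11.3 TPM in androstenone 2 against 3.21 to 4.51 TPM in the rest of that group. Summed levels in control 4 stood apart for the other cartilage matrix genes (1195 TPM against 53.8 to 204), matrix breakdown (3794 TPM against 163 to 466), osteoblasts and bone matrix (97257 TPM against 2244 to 8002) and osteoclasts (7468 TPM against 266 to 916). The sum of the glial genes was 30.4 TPM in control 2 against 1.72 to 4.66 TPM in the other controls.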

How the results depend on the processing

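The unadjusted cutoff called 1368 genes, 6 of them cartilage matrix genes. With limma on log2(TPM + 0.1) and log2(TPM + 1) it called 731 and 298 genes, and the second called 1 cartilage matrix gene; limma voom called 2. With control 1 and control 4 left out, 881 genes and 3 cartilage matrix genes passed, and with control 2 and control 4 left out 748 and 0, both chosen after seeing the data. With each library left out, 867 (without androstenone 1) to 2414 (without control 3) genes and 3 to 6 cartilage matrix genes passed. Same-numbered libraries of the groups did not deviate together, with correlations of -0.036, -0.498, -0.598 and 0.173. Of the 8 libraries, 0 correlated best with their own number. This gave no sign that the numbers pair libraries, but 4 libraries per group are too few to exclude it. With the replicate number as a block, 583 genes and 1 cartilage matrix gene passed.

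After adjustment, 0 genes passed in edgeR's quasi-likelihood test and with each library left out, against 200 in the likelihood ratio test, 157 in the exact test, 670 in DESeq2, 1 without TMM scaling and 3 and 4 with limma on log2(TPM + 0.1) and log2(TPM + 1). Changes of direction were as follows, on the log2 scale. Without control 2 and control 4, COL11A1 was at 0.18, COMP at 0.65 and ADAMTS4 at 0.13, and of genes that had not passed, COL2A1 at 0.96, COL10A1 at 0.56, SNORC at 0.76, MATN4 at 0.38, FGFR3 at 0.055, MEF2C at 0.35, WWP2 at 0.085, MMP13 at 0.16 and HTRA1 at 0.54. With each library left out, values ran from -0.42 to 0.40 for COL2A1 (above 0 without control 2, androstenone 1 or androstenone 2), -0.86 to 0.84 for SNORC (above 0 without control 2 or androstenone 2), -1.51 to 0.63 for COL10A1, -4.02 to 0.55 for MMP13 and -1.01 to 0.034 for MEF2C (these 3 above 0 without control 4) and -0.17 to 0.046 for PAPSS2 (above 0 without control 1). PAPSS2 was at 0.016 in limma voom, and UGDH at -0.020 and -0.019 in limma on log2(TPM + 0.1) and log2(TPM + 1). Without control 1 and control 4, COL10A1 was at 0.47, PAPSS2 at 0.18 and MMP13 at 0.63. Of the values of the cartilage matrix genes over all alternatives, 170 kept direction and side of the cutoff, 37 lost the call and 12 changed direction. The causes were not tested. Depth limited control 1, where COL10A1 had 0 counts.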
